A study of Mus musculus with 9 samples.

Results

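Autophagy genes were described in bulk RNA of dissected substantia nigra from mice. They are Ulk1, Becn1, Atg5, Atg7, Map1lc3b, Gabarap, Gabarapl1, Sqstm1, Optn and Tfeb. They were chosen by name for their place in the pathway, with earlier results of these data known. They make up 10 of the 55450 gene identifiers counted. Every one of the 10 passed the filter on low counts that left 20892 genes for testing. Their counts ran from 508, for Tfeb in the library where it was lowest, to 21834, for Sqstm1.

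The study asked how nigral tissue responds when a Synuclein-expressing vector acts in microglia or in dopaminergic neurons. Lentiviral vectors that need Cre recombinase to be switched on were injected into the substantia nigra of male mice, and tissue was taken 5 weeks later. The age at injection is 8 weeks in the results of the study, whereas its methods describe the mice as 9 weeks old. In the CX3-Cre group the Synuclein-expressing vector was given to CX3CR1-CreERT2 mice, in which Cre sits in the Cx3cr1 gene of microglia and was induced by 4 days of tamoxifen. In the DAT-Cre group the same vector was given to mice that carry Cre in Slc6a3, the dopamine transporter gene of dopaminergic neurons, for which no tamoxifen is described. The control group is labelled GFP and is described as CX3CR1-CreERT2 mice given a vector for destabilized GFP. As described, CX3-Cre and control share the driver line and its tamoxifen and differ in the vector. CX3-Cre and DAT-Cre share the vector and differ in the driver line and tamoxifen, and between DAT-Cre and control driver, tamoxifen and vector cannot be told apart. Each group held 3 libraries, lettered A, B and C, and nothing says that they came from separate animals, so p-values measure the spread between these libraries, which may be technical.

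Autophagy encloses part of the cytoplasm in a double membrane, the autophagosome, and delivers it to the lysosome. A kinase complex around ULK1 starts the process, a lipid kinase complex around Beclin 1 marks the membrane, ATG7 and ATG5 act in attaching small ATG8 proteins such as LC3B and GABARAP to it, and receptors such as p62 and optineurin bring in the cargo. Neurons cannot dilute damaged proteins by dividing, and loss of Atg5 or Atg7 in the mouse nervous system leads to degeneration. TFEB is a transcription factor that raises lysosomal and autophagy genes through the E-box letters CACGTG.

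Some facts of the libraries touch all results. Between 21592817 and 39475428 reads were counted on genes per library. DAT-Cre library B stood apart. Its squared difference from the other DAT-Cre libraries was 13.7 and 18.7 times that of random sampling, whereas DAT-Cre A and C differed by 2.38 times, CX3-Cre libraries by 2.72 to 7.33 times and control libraries by 1.49 to 1.89 times. Cell type markers also moved with the groups. Summed over 8 genes, microglial markers reached 1205 to 1225 CPM (counts per 1000000 counts of scaled library size) in control, 806 to 831 in CX3-Cre and 619 to 671 in DAT-Cre libraries. Summed T cell markers (5 genes) had 40.3 to 41.7, 33.5 to 35.8 and 9.16 to 10.5 CPM in the same order, and astrocyte markers (5 genes) 4209 to 4240, 2266 to 2371 and 2411 to 2485 CPM. General neuronal markers (6 genes) had 3013 to 3045, 3254 to 3324 and 4586 to 4645 CPM. Snap25 alone had 1352 to 1378 CPM in control and 1771 to 1793 CPM in CX3-Cre libraries. Of these 6 genes, 2 were called higher and 3 lower in CX3-Cre against control, so the sum does not stand for each gene. Dopaminergic markers (6 genes) were present in every library, at 414 to 417, 589.6 to 597 and 351 to 355 CPM. Ttr and 4 other choroid plexus markers summed to 33.4 to 36.2 CPM in control but to 1461 to 1570 in CX3-Cre and 861 to 1031 in DAT-Cre libraries. Pituitary markers (5 genes) had 57.6 to 60.2, 3.04 to 3.12 and 15.2 to 20.95 CPM, with Prl at 0 counts in all DAT-Cre libraries. Oligodendrocyte markers (5 genes) had 19652 to 19739, 20985 to 21352 and 13949 to 14851 CPM, endothelial markers (4 genes) 185 to 186, 271 to 275 and 277 to 284 CPM, and cerebellar granule cell markers (5 genes) 91.9 to 93.2, 107 to 109 and 142 to 144 CPM. Some sums rested on few genes. Zic1 held most of the cerebellar sum, at 88.8 to 90.2, 103 to 105 and 123 to 129 CPM. Pomc held most of the pituitary sum in DAT-Cre, at 15.1 to 20.9 CPM. In DAT-Cre against control the log2 fold changes of astrocyte markers were -1.15 for Gfap and -0.84 for Aqp4. They were -0.15 for Gja1, -0.04 for Slc1a3 and -0.04 for Aldh1l1. Reads on no annotated feature took 9.82 to 10.01% of uniquely placed reads in control, 8.36 to 9.47% in CX3-Cre and 5.45 to 5.58% in DAT-Cre libraries. Counts of Cx3cr1, the gene that carries Cre in the microglial line, were 0.506 to 0.516 times those of Csf1r in control, 0.325 to 0.337 times in CX3-Cre and 0.514 to 0.540 times in DAT-Cre libraries. Thus the libraries labelled control stood with DAT-Cre and not with CX3-Cre in this ratio, and they also held the highest microglial and T cell marker sums. The labels were kept as given. The part of these differences in the results on autophagy genes was not tested, and in bulk tissue fewer cells of a type and less RNA per cell cannot be told apart.

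The letters upstream of the start sites of Ulk1, Atg7, Sqstm1 and Atg5 are shown as examples of initiation, conjugation and cargo genes, chosen after their values were seen. Each stretch holds the 150 bases before the start in RefSeq (GRCm38.p6), 5′ to 3′ on the strand of the gene. Capitals mark the E-box CACGTG and the GC box CCGCCC, the latter also where it is read on the other strand as GGGCGG.
Ulk1, chr5:110810082-110810231, minus strand: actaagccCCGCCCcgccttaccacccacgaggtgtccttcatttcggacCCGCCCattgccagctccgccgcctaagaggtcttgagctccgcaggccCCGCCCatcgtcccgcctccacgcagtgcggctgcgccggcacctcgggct
Atg7, chr6:114670946-114671095, plus strand: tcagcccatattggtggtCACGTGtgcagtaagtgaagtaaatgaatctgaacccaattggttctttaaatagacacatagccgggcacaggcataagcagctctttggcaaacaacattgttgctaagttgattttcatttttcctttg
Sqstm1, chr11:50210821-50210970, minus strand: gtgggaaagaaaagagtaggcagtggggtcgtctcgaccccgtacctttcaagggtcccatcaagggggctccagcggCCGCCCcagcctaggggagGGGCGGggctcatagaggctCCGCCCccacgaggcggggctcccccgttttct
Atg5, chr10:44268189-44268338, plus strand: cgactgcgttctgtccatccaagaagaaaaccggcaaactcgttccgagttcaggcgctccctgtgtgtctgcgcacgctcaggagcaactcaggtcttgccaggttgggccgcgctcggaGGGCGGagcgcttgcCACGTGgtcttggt
In these stretches Ulk1 and Sqstm1 hold 3 GC boxes each, Atg5 holds 1 GC box and 1 E-box, and Atg7 holds 1 E-box. Among all 32851 promoter stretches of this length in the table, 4.30% hold the E-box and 28.6% the GC box. RefSeq windows of 300 bases, of which 250 lie before the start, were found for 9 of the 10 genes, with no window for Becn1. In the whole windows the E-box occurred in Atg5 and Atg7 only, against 7.15% of all windows, and the GC box in 7 genes, against 35.7% of all windows. Both E-box genes differed between DAT-Cre and control in opposite directions. The RefSeq start of Atg7 lies inside the gene as GENCODE annotates it.

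**Figure D1:**
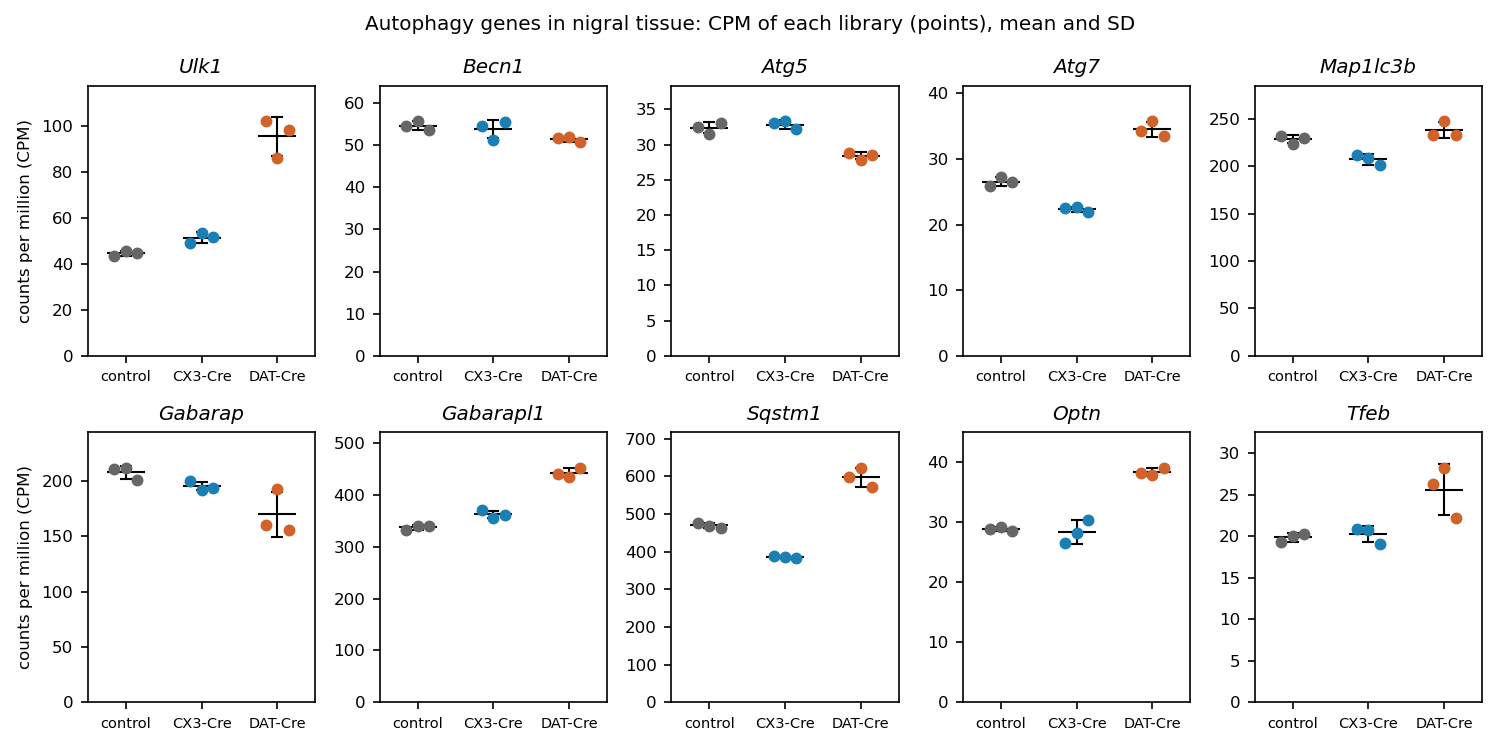
Level of each autophagy gene in every library, in CPM on linear axes that start at 0. Points are libraries, wide bars are group means and whiskers are SDs (n = 3). For Ulk1, the 3 DAT-Cre libraries sit between 86.1 and 102 CPM, above all control and CX3-Cre libraries.

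Levels of different genes were compared per kilobase of exon. The length was that of all annotated exon bases of a gene, which can exceed the length of its transcripts. The order therefore depends on the annotation. Map1lc3b had 7517 such bases and Gabarap 1844, and in plain CPM Map1lc3b stood above Gabarap in control (228 and 208). In control tissue Gabarapl1 led with 167 ± 2.17 CPM per kb (SD, n = 3 libraries, as for all levels), followed by Sqstm1 with 139.9 ± 1.92, Gabarap with 113 ± 3.28 and Map1lc3b with 30.4 ± 0.537. Atg5 had 13.8 ± 0.337 CPM per kb, Becn1 7.73 ± 0.151, Optn 7.70 ± 0.1002, Ulk1 6.88 ± 0.150, Atg7 3.81 ± 0.0935 and Tfeb 3.51 ± 0.0900. Becn1 and Optn were the only neighbours in this order whose levels differed by less than the larger of their SDs. The place of Becn1 depends on the counting, since reads over exons shared with Cntd1 were left out while the whole exon length was used. By strand it had 14.5 (forward) and 13.96 (reverse) CPM per kb in control, above Atg5 (12.9 and 13.1) and Optn (8.18 and 8.78). The 3 ATG8 genes and Sqstm1 thus stood above the kinase, the conjugation genes and the transcription factor. In CX3-Cre tissue Ulk1, with 7.94 ± 0.355 CPM per kb, came before Becn1 (7.61 ± 0.310) and Optn (7.56 ± 0.520), and these neighbours differed by less than the larger of their SDs. Tfeb (3.58 ± 0.175) stood above Atg7 (3.21 ± 0.0541). In DAT-Cre tissue Ulk1 took the fifth place with 14.7 ± 1.31 CPM per kb, above Atg5 (12.1 ± 0.207), while Gabarapl1 (219.7 ± 4.46), Sqstm1 (178 ± 7.53), Gabarap (91.9 ± 11.0) and Map1lc3b (31.6 ± 1.11) kept their order. Optn (10.2 ± 0.174 CPM per kb) and Becn1 (7.27 ± 0.0903) followed, and Atg7 (4.95 ± 0.168) and Tfeb (4.52 ± 0.541) overlapped within their SDs.

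Comparisons between groups used edgeR's quasi-likelihood test, with p adjusted by Benjamini-Hochberg over all 20892 genes and a call at an adjusted p under 0.05. Differences are log2 fold changes ± SE. Between DAT-Cre and control, 6 of the 10 genes rose (Ulk1, Optn, Gabarapl1, Atg7, Tfeb and Sqstm1), 2 fell (Gabarap and Atg5), and Becn1 and Map1lc3b did not pass the test. The 8 called genes, or 80% of the 10, stand beside 59.9% of all genes called in this comparison, in which 32.0% were called higher and 27.9% lower. Between CX3-Cre and control, Ulk1 rose, Sqstm1, Atg7 and Map1lc3b fell, and 6 genes did not pass. These 4 of 10 stand beside 30.5% of all genes called, 14.0% higher and 16.5% lower. In CX3-Cre against DAT-Cre, 7 genes were lower, Atg5 and Gabarap were higher and Becn1 did not pass, beside 58.9% of all genes called, 27.6% higher and 31.3% lower. Without DAT-Cre library B the calls were 6 higher and 2 lower in DAT-Cre against control and 2 higher and 7 lower in CX3-Cre against DAT-Cre. In CX3-Cre against control they were 2 higher and 4 lower. The shares of all genes given above are from all 9 libraries. Over the fits that left out a library, all genes called in CX3-Cre against control ran from 2013 to 4107 higher and 2626 to 4459 lower.

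Between the comparisons, the size of the changes differed more than their number. Tested for a change beyond 1.2-fold, 5 genes were higher in DAT-Cre than in control (Ulk1, Optn, Gabarapl1, Atg7 and Sqstm1) and none was lower, beside 39.4% of all genes, 20.5% higher and 18.9% lower. No gene of the 10 passed this test between CX3-Cre and control, beside 8.44% of all genes (3.16% higher and 5.28% lower), although 4 passed the test of any change. An unadjusted p under 0.05 in this test (edgeR's glmTreat) was reached by none of them either. In CX3-Cre against DAT-Cre, Ulk1, Sqstm1, Atg7 and Optn were lower beyond 1.2-fold and none was higher, beside 38.2% of all genes, 17.8% higher and 20.4% lower. The median log2 fold change over the 10 genes was 0.36 in DAT-Cre against control, -0.02 in CX3-Cre against control and -0.31 in CX3-Cre against DAT-Cre, and over all genes it was -0.00, -0.00 and 0.01. With the sign left out, the medians of the 10 genes were 0.36, 0.10 and 0.31 in the same order. Those of all genes were 0.39, 0.19 and 0.37. By this median the 10 genes did not exceed all tested genes, which include genes of lower counts than theirs. The comparisons with control share the control libraries, and each is given with its own values. Levels of all 10 genes lay apart without overlap between DAT-Cre and control, beside 64.1% of all genes. They did so for 6 of 10 between CX3-Cre and control, beside 49.3% of all genes, and for 8 of 10 between CX3-Cre and DAT-Cre, beside 61.0%.

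**Figure D2:**
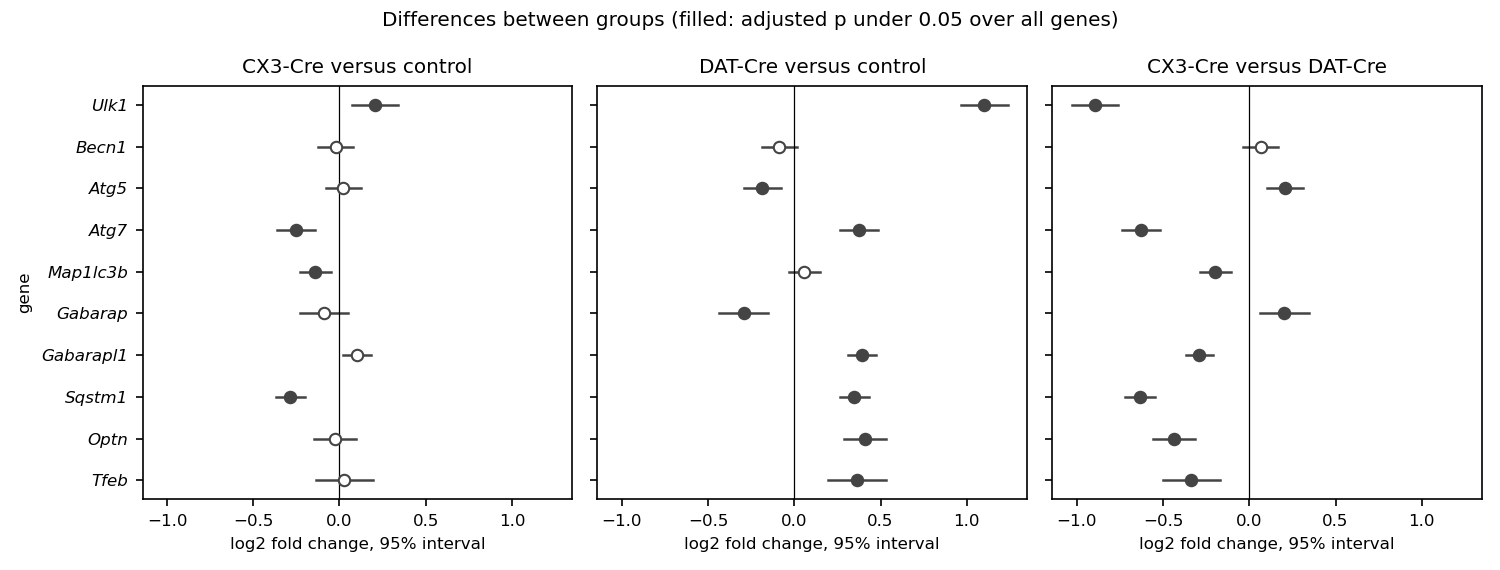
Log2 fold change of each autophagy gene in the 3 comparisons, with its 95% interval. Filled points passed an adjusted p under 0.05 over all genes. Ulk1 lies farthest from 0 in the panels of DAT-Cre against control (1.10) and of CX3-Cre against DAT-Cre (-0.90).

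Ulk1 (ENSMUSG00000029512.11, chromosome 5 from 110784488 to 110810097, minus strand, GRCm38, as for all positions of genes) encodes the kinase that starts autophagosome formation. It had 43.6, 45.6 and 44.7 CPM in control libraries A, B and C, 49.1, 53.7 and 51.7 in CX3-Cre and 102, 86.1 and 98.5 in DAT-Cre. The 3 groups did not overlap, and DAT-Cre B was the lowest of its group. Ulk1 was 2.15-fold higher in DAT-Cre than in control (1.10 ± 0.06, adjusted p = 3.0e-09, edgeR). It was 15.3% higher in CX3-Cre than in control (0.21 ± 0.06, adjusted p = 0.024), and the direct comparison of CX3-Cre with DAT-Cre gave a fall of 46.2% (-0.90 ± 0.06, adjusted p = 2.2e-08). The call between CX3-Cre and control was lost without control A, B or C and without CX3-Cre B or C, with adjusted p of 0.056 to 0.099, and with reverse-strand counts alone (adjusted p = 0.065).

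Becn1 (ENSMUSG00000035086.13, chromosome 11 from 101285952 to 101302286, minus strand) encodes Beclin 1, the scaffold of the class III PI3-kinase complex. Its levels were 54.6, 55.7 and 53.5 CPM in control, 54.5, 51.3 and 55.5 in CX3-Cre and 51.7, 51.8 and 50.6 in DAT-Cre. CX3-Cre libraries overlapped both other groups, whereas DAT-Cre libraries lay below all control libraries. The log2 fold change was -0.09 in DAT-Cre against control (95% interval -0.19 to 0.01, adjusted p = 0.13, edgeR), -0.02 in CX3-Cre against control (-0.12 to 0.08, 0.03 with library size alone, adjusted p = 0.76) and 0.07 in CX3-Cre against DAT-Cre (-0.04 to 0.17, adjusted p = 0.25). Exons of Cntd1 on the opposite strand share 43.9% of the exon bases of Becn1, and reads there were left out of the counts of both strands together. Counted by strand and scaled by the total of that strand, Becn1 had 102 (forward) and 98.6 (reverse) CPM in control, far above its level in the counts of both strands together, 104 and 103 CPM in CX3-Cre and 87.2 and 87.7 CPM in DAT-Cre. The fall in DAT-Cre against control passed with library size alone (-0.23, adjusted p = 0.00070), with at least 10 counts in every library (-0.16, adjusted p = 0.0089), with forward-strand counts (-0.14, adjusted p = 0.037) and with the 2 groups alone (-0.13, adjusted p = 0.045). CX3-Cre against DAT-Cre passed with library size alone (0.26, adjusted p = 0.00027) and with at least 10 counts (0.14, adjusted p = 0.019).

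Ulk1 and Becn1 can also be set against each other within a library, so that no scaling between libraries enters. This ratio and the 3 that follow were chosen after the values were seen and are given as descriptions. Counts of Ulk1 were 0.799, 0.819 and 0.836 times those of Becn1 in control, 0.900, 1.05 and 0.933 times in CX3-Cre and 1.98, 1.66 and 1.95 times in DAT-Cre. No library of DAT-Cre came near the other groups.

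Atg7 (ENSMUSG00000030314.16, chromosome 6 from 114643097 to 114860614, plus strand) encodes the E1-like enzyme that activates ATG12 and the ATG8 proteins. It had 25.9, 27.2 and 26.6 CPM in control, 22.5, 22.6 and 21.9 in CX3-Cre and 34.4, 35.8 and 33.4 in DAT-Cre, with no overlap between any groups. Atg7 was 29.8% higher in DAT-Cre than in control (0.38 ± 0.05, adjusted p = 2.1e-05, edgeR) and 15.9% lower in CX3-Cre than in control (-0.25 ± 0.05, adjusted p = 0.0022). In CX3-Cre against DAT-Cre the log2 fold change was -0.63 ± 0.05 (adjusted p = 1.3e-07).

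Atg5 (ENSMUSG00000038160.7, chromosome 10 from 44268358 to 44364291, plus strand) encodes the partner of ATG12 in the complex that attaches ATG8 proteins to lipid. Atg5 had 32.5, 31.5 and 33.1 CPM in control, 33.0, 33.3 and 32.2 in CX3-Cre and 28.8, 27.9 and 28.5 in DAT-Cre. Every DAT-Cre library lay below both other groups, which overlapped. The gene fell by 0.19 on the log2 scale in DAT-Cre against control (SE 0.05, adjusted p = 0.0049, edgeR), was 0.21 ± 0.05 higher in CX3-Cre than in DAT-Cre (adjusted p = 0.0022) and differed by 0.02 between CX3-Cre and control (95% interval -0.08 to 0.12, adjusted p = 0.77). Atg5 and Atg7 thus moved in opposite directions between DAT-Cre and control. Counts of Atg7 were 0.798, 0.863 and 0.803 times those of Atg5 in control, 0.681, 0.680 and 0.681 times in CX3-Cre and 1.19, 1.28 and 1.17 times in DAT-Cre.

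The ATG8 family is split into the LC3 and the GABARAP branch. Gabarapl1 (ENSMUSG00000030161.8, chromosome 6 from 129533160 to 129542346, plus strand) had 332, 339 and 340.0 CPM in control, 369.6, 355 and 361 in CX3-Cre and 441, 434 and 452 in DAT-Cre. The 3 groups did not overlap. It was 31.2% higher in DAT-Cre than in control (0.39 ± 0.04, adjusted p = 5.9e-07, edgeR) and 18.2% lower in CX3-Cre than in DAT-Cre (-0.29 ± 0.04, adjusted p = 1.2e-05). With library size alone these log2 fold changes were 0.25 and -0.10, still past the test (adjusted p = 7.7e-05 and 0.040). Between CX3-Cre and control the difference was 0.10 ± 0.04 with an adjusted p of 0.052, and it passed with DESeq2 (0.046), with library size alone (0.0085), with the 2 groups alone (0.0072) and without DAT-Cre B (0.0043). Exons of 1700101I11Rik on the opposite strand share 28.3% of the exon bases of Gabarapl1, and reads there were left out of the counts of both strands together. Counted by strand and scaled by the total of that strand, Gabarapl1 had 428 (forward) and 436 (reverse) CPM in control. It had 470 and 481 CPM in CX3-Cre and 495 and 514 CPM in DAT-Cre. Its level and its ratio to Gabarap, given below, thus depend on the counting.

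Gabarap (ENSMUSG00000018567.14, chromosome 11 from 69991143 to 69994951, plus strand), the namesake of the branch, had 211, 212 and 201 CPM in control, 199, 192 and 194 in CX3-Cre and 159.9, 193 and 156 in DAT-Cre. DAT-Cre B lay within the range of CX3-Cre, away from the other DAT-Cre libraries, and the control libraries were above both other groups. Gabarap fell by 0.29 on the log2 scale in DAT-Cre against control (SE 0.07, adjusted p = 0.0015, edgeR), and by 0.38 without DAT-Cre B. It was 0.20 ± 0.07 higher in CX3-Cre than in DAT-Cre (adjusted p = 0.016). That call was lost without DAT-Cre C (0.14, adjusted p = 0.099). In CX3-Cre against control the log2 fold change was -0.09 ± 0.07 (adjusted p = 0.33), and it passed with the 2 groups alone (adjusted p = 0.049) and without DAT-Cre B (adjusted p = 0.031).

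The 2 genes of the GABARAP branch thus differed in direction between DAT-Cre and control. Within a library, counts of Gabarapl1 were 1.58, 1.60 and 1.69 times those of Gabarap in control, 1.85, 1.85 and 1.86 times in CX3-Cre and 2.75, 2.25 and 2.90 times in DAT-Cre, again with DAT-Cre B the lowest of its group and no overlap between groups.

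Map1lc3b (ENSMUSG00000031812.16, chromosome 8 from 121590361 to 121598760, plus strand) encodes LC3B, the protein most used to follow autophagosomes. It had 232, 224 and 229.7 CPM in control, 212, 209 and 201 in CX3-Cre and 232, 247 and 233 in DAT-Cre. CX3-Cre libraries lay below all others, while the lowest DAT-Cre library and the highest control library had nearly the same level. Map1lc3b was 9.27% lower in CX3-Cre than in control (-0.14 ± 0.04, adjusted p = 0.022, edgeR), a call lost without control A or C or without CX3-Cre B or C (adjusted p of 0.062 to 0.10), with library size alone (-0.09, adjusted p = 0.11), with all genes of at least 1 count (-0.10, adjusted p = 0.24) and with forward-strand counts (-0.12, adjusted p = 0.097). In CX3-Cre against DAT-Cre the log2 fold change was -0.20 ± 0.04 (adjusted p = 0.0010), but -0.00 with library size alone (adjusted p = 0.94) and -0.11 with forward-strand counts (adjusted p = 0.074). Between DAT-Cre and control it was 0.06 (95% interval -0.03 to 0.15, adjusted p = 0.26), and -0.09 with library size alone.

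Cargo receptors such as p62 and optineurin bind ubiquitin on the cargo and ATG8 proteins on the membrane. Sqstm1 (ENSMUSG00000015837.15, chromosome 11 from 50199366 to 50210827, minus strand) encodes p62, a receptor that is itself degraded with its cargo. It had 476, 469 and 463 CPM in control, 388, 385 and 383 in CX3-Cre and 598, 623 and 572 in DAT-Cre. The 3 groups were far apart compared with their spread. Sqstm1 was 27.3% higher in DAT-Cre than in control (0.35 ± 0.04, adjusted p = 3.3e-06, edgeR) and 17.97% lower in CX3-Cre than in control (-0.29 ± 0.04, adjusted p = 9.5e-05). The fall in CX3-Cre against DAT-Cre was 35.6% (-0.63 ± 0.04, adjusted p = 7.5e-09). All 3 calls held in every alternative other than the 1.2-fold threshold, which the difference between CX3-Cre and control did not pass. Mrnip on the opposite strand shares 17.3% of the exon bases of Sqstm1. Counts of Sqstm1 were 2.06, 2.10 and 2.02 times those of Map1lc3b in control, 1.83, 1.84 and 1.90 times in CX3-Cre and 2.57, 2.52 and 2.45 times in DAT-Cre.

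Optn (ENSMUSG00000026672.11, chromosome 2 from 5020642 to 5064051, minus strand) encodes optineurin, a receptor for damaged mitochondria among other cargo. Its levels were 29.0, 29.3 and 28.5 CPM in control, 26.5, 28.3 and 30.4 in CX3-Cre and 38.2, 37.8 and 39.1 in DAT-Cre. DAT-Cre stood above both other groups, and CX3-Cre libraries spread around the control. Optn was 32.7% higher in DAT-Cre than in control (0.41 ± 0.06, adjusted p = 2.4e-05, edgeR) and 26.1% lower in CX3-Cre than in DAT-Cre (-0.44 ± 0.06, adjusted p = 1.2e-05). Between CX3-Cre and control the log2 fold change was -0.03 (95% interval -0.15 to 0.09, 0.02 with library size alone, adjusted p = 0.76).

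**Figure D3:**
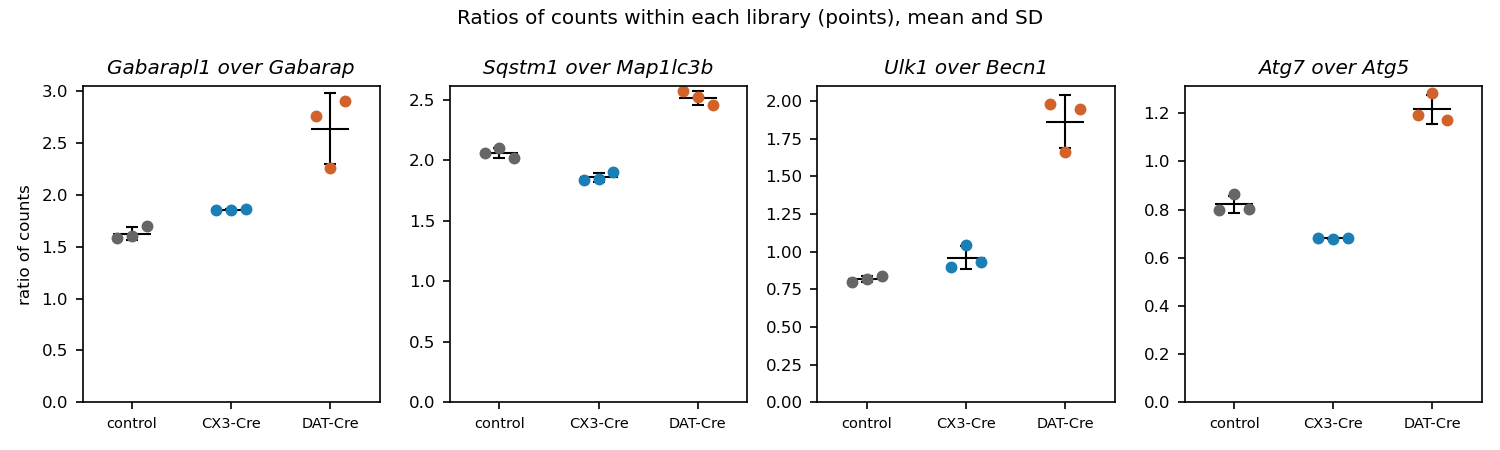
Ratios of counts of 2 autophagy genes within each library, on linear axes that start at 0. Points are libraries, wide bars are group means and whiskers are SDs (n = 3). In the ratio of Gabarapl1 to Gabarap the DAT-Cre libraries sit at 2.25 to 2.90, above CX3-Cre at 1.85 to 1.86 and control at 1.58 to 1.69.

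Tfeb (ENSMUSG00000023990.18, chromosome 17 from 47737030 to 47792419, plus strand), the transcription factor of the pathway, was the lowest of the 10 genes in control CPM. It had 19.3, 20.03 and 20.3 CPM in control, 20.96, 20.7 and 19.1 in CX3-Cre and 26.3, 28.3 and 22.3 in DAT-Cre. All DAT-Cre libraries lay above the others, though DAT-Cre C stood much nearer to them than A and B. Tfeb was 28.7% higher in DAT-Cre than in control (0.36 ± 0.08, adjusted p = 0.0010, edgeR). In CX3-Cre it was 20.8% lower than in DAT-Cre (-0.34 ± 0.08, adjusted p = 0.0017), but the call was lost with library size alone (-0.14, adjusted p = 0.12) and with forward-strand counts (-0.25, adjusted p = 0.057). The difference between CX3-Cre and control was 0.03 (95% interval -0.14 to 0.19, adjusted p = 0.82).

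A wider list placed these genes among 53 further autophagy genes in 8 steps of the pathway. Between DAT-Cre and control, 27 of the 53 rose, 6 fell and 20 did not pass, so that 62.3% were called, close to the 59.9% of all genes. Their median log2 fold change was 0.18. Between CX3-Cre and control, 3 rose, 10 fell and 40 did not pass (24.5% called, beside 30.5% of all genes), with a median of -0.00. In CX3-Cre against DAT-Cre, 6 were higher, 27 lower and 20 did not pass (62.3% called, beside 58.9% of all genes), with a median of -0.14.

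**Figure D4:**
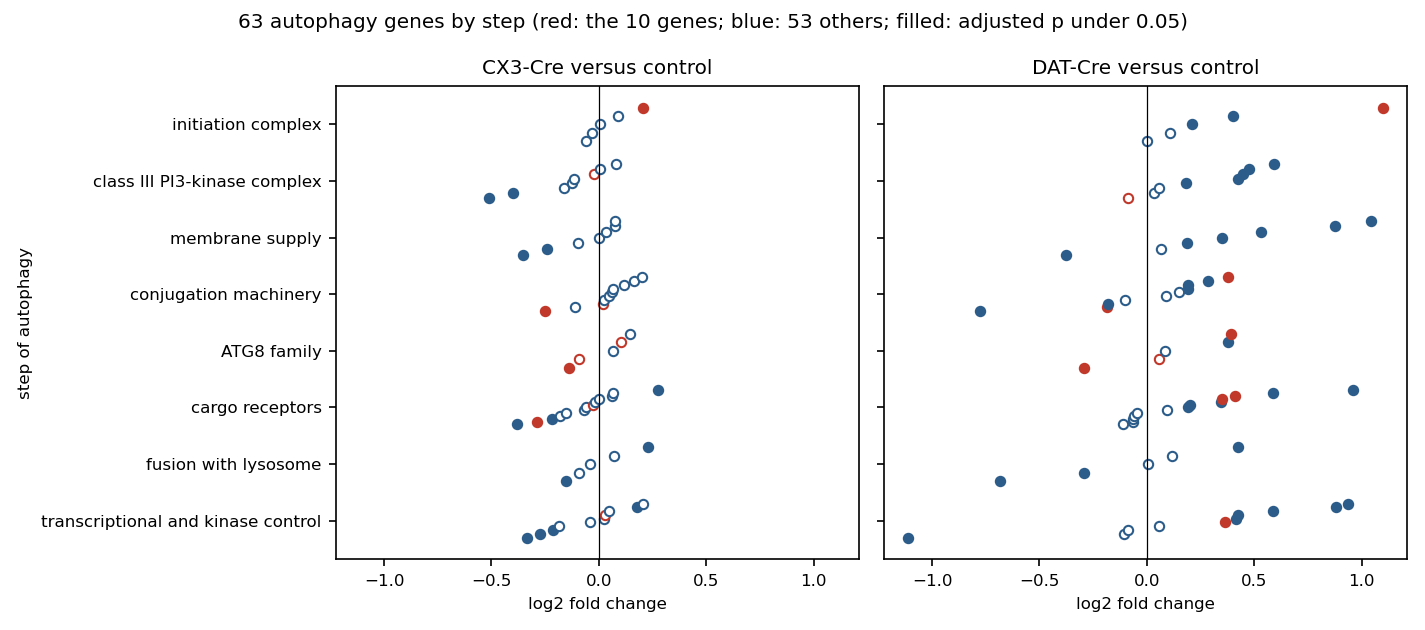
Log2 fold changes of 63 autophagy genes by step of the pathway, in CX3-Cre against control (left) and DAT-Cre against control (right). Red points are the 10 genes, blue points the 53 others, and filled points passed an adjusted p under 0.05. In the right panel Ulk1 (1.10) lies farthest to the right and Zkscan3 (-1.11) farthest to the left.

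In DAT-Cre against control, where 32.0% of all genes were called higher and 27.9% lower, each step held a few genes, and its counts are given as a description. In membrane supply, 5 of 7 genes rose and 1 fell (4 and 1 with library size alone). The largest rise was that of Atg9a, the lipid scramblase of the vesicles that seed the autophagosome (1.05 ± 0.08, adjusted p = 8.4e-08, edgeR). Gm29253 on the same strand shares 31.8% of the exon bases of Atg9a. In the class III PI3-kinase complex, 5 of the 7 other genes rose and none fell, by DESeq2 and at an unadjusted p under 0.05 as well (4 and none with library size alone), led by Pik3r4, its regulatory subunit (0.59 ± 0.07, adjusted p = 3.4e-06). In the initiation complex, Atg13 and Ulk2 rose among 4 other genes, Atg13, the adaptor of ULK1, by 0.40 ± 0.05 (adjusted p = 4.2e-06). With library size alone, 1 of these 4 rose and 1 fell. Of 9 other genes of transcriptional and kinase control, 5 rose and 1 fell (5 and 3 with library size alone). The fall was that of Zkscan3, a repressor of autophagy genes (-1.11 ± 0.06, adjusted p = 2.8e-09). The rises were those of Rptor (0.93), Mtor (0.88), Foxo3 (0.59), Prkaa2 (0.43) and Tfe3 (0.42). Mtor, which rose, encodes a kinase that acts against autophagy.

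Of 11 other cargo receptor genes, 5 rose and none fell, again also by DESeq2 and unadjusted, but 3 rose and 5 fell with library size alone, and the list was led by Wdfy3, which encodes the large adaptor ALFY (0.96 ± 0.12, adjusted p = 7.2e-06, edgeR). Of 8 other genes of the conjugation machinery, 3 rose and 2 fell (none and 3 with library size alone), with the largest change in Atg4a, a protease that trims ATG8 proteins (-0.78 ± 0.11, adjusted p = 2.6e-05). Of the 5 genes of fusion with the lysosome, 1 rose and 2 fell (1 and 3 with library size alone), Vamp8, a SNARE, by the most (-0.68 ± 0.12, adjusted p = 0.00022). Map1lc3a, which encodes LC3A, rose in the ATG8 family (0.38 ± 0.06, adjusted p = 0.00011), while Gabarapl2 did not pass (0.08, adjusted p = 0.27).

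Between CX3-Cre and control the changes in the wider list were smaller. No other gene of the initiation complex (4), the conjugation machinery (8) or the ATG8 family (2) passed the test in edgeR or in DESeq2. At an unadjusted p under 0.05 in edgeR, none of the initiation complex, 2 of the conjugation machinery and 1 of the ATG8 family passed. Pik3r4 (-0.51 ± 0.07, adjusted p = 7.9e-05, edgeR) and Pik3c3, the lipid kinase itself (-0.40, adjusted p = 2.1e-05), fell in the class III PI3-kinase complex and were the only genes of the wider list to pass the 1.2-fold test. Calcoco1, a receptor for the endoplasmic reticulum, fell by 0.38 (SE 0.05, adjusted p = 0.00012), Atg2b, a lipid transfer protein, by 0.35 (SE 0.09, adjusted p = 0.0080) and Mtor, the kinase that restrains ULK1, by 0.34 (SE 0.07, adjusted p = 0.0019). Stx17, the SNARE of the autophagosome, rose by 0.23 (SE 0.06, adjusted p = 0.0067).

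The direct comparison of the Synuclein-expressing groups gave larger differences. CX3-Cre was lower than DAT-Cre in Atg9a (-1.29 ± 0.08, adjusted p = 1.0e-08, edgeR), Mtor (-1.22 ± 0.07, adjusted p = 2.4e-09), Pik3r4 (-1.11 ± 0.07, adjusted p = 7.2e-09), Wdfy3 (-1.03 ± 0.12, adjusted p = 3.5e-06), Atg13 (-0.46 ± 0.05, adjusted p = 1.1e-06) and Map1lc3a (-0.23 ± 0.06, adjusted p = 0.0051). It was higher in Atg4a (0.90 ± 0.11, adjusted p = 5.3e-06) and Vamp8 (0.64 ± 0.12, adjusted p = 0.00037). Mtor, a kinase that acts against autophagy, thus moved in the same direction as Ulk1 in this comparison. General neuronal markers were called lower in CX3-Cre than in DAT-Cre for 6 of 6 genes. Dopaminergic markers went the other way, with 5 of 6 called higher, as did T cell markers, with 5 of 5. Of 8 microglial markers, 5 were called higher and 2 lower. Oligodendrocyte markers (5 genes) gave 3 higher and 1 lower, and astrocyte markers (5 genes) 1 higher and 3 lower. Cell type markers thus differed in both directions, and their part in these differences was not tested.

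Counts of genes called in each direction depended on the scaling. With library size alone in place of TMM, the median log2 fold change of all genes shifted to -0.15 in DAT-Cre against control, 0.20 in CX3-Cre against DAT-Cre and 0.04 in CX3-Cre against control. The share of called genes that were higher moved from 53.4% to 37.9%, from 46.8% to 66.7% and from 45.9% to 59.1%, respectively. Among the 53 other autophagy genes, library size alone gave 19 higher and 16 lower in DAT-Cre against control, and 21 higher and 18 lower in CX3-Cre against DAT-Cre. On that scale the log2 fold changes in DAT-Cre against control were smaller for Atg7 (0.23), Optn (0.26), Sqstm1 (0.20) and Tfeb (0.22) and larger for Atg5 (-0.33). Those in CX3-Cre against DAT-Cre were smaller for Optn (-0.24) and larger for Atg5 (0.40) and Gabarap (0.40). All of these kept their direction and passed the test (adjusted p of 0.025 or less, edgeR). The strand counted also moved values, which passed the test with the same direction. Atg5 was at -0.30 (reverse strand) and Atg7 at 0.24 (forward strand) in DAT-Cre against control, and Gabarap was at 0.31 (forward strand) and Map1lc3b at -0.12 (reverse strand, and with at least 10 counts in every library) in CX3-Cre against DAT-Cre. The 10 genes gave 6 higher and 3 lower in DAT-Cre against control on that scale, 3 higher and 5 lower in CX3-Cre against DAT-Cre, and 2 higher and 2 lower in CX3-Cre against control.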

How the data were processed

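Bulk RNA was measured in 9 libraries, 3 per group, with reads of 76 bases from a stranded kit. The authors deposited raw counts per gene, not normalized. Reads had been trimmed (Trimmomatic) and aligned (STAR) to mm10. The methods name featureCounts for counting, although the columns are those of STAR's gene counting, and versions are not given in the sources used here. All identifiers belong to GENCODE M21 (GRCm38). The columns hold both strands together and each strand, and since the reverse strand held 49.8 to 49.9% of the strand-specific counts, both strands together were used. Rows that name no gene took 30.5 to 35.9% of reads and were left out.

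Counts were filtered with filterByExpr, scaled by TMM and tested in edgeR 4.0.16 (R 4.3.3, limma 3.58.1), with all 9 libraries in 1 fit, a term per group, glmQLFTest and, for changes beyond 1.2-fold, glmTreat. SEs were taken as the log2 fold change over the root of its F statistic. CPM are counts scaled by TMM, and 3 counts, taken as the floor of counting, lay below every level of the 10 genes. Groups were taken from the sample titles. Alternatives were DESeq2 1.42.0 and its size factors, library size alone, other filters, each strand, the 2 groups alone, a replicate block and leaving out each library. The fit was tested on simulated counts. The 10 genes, the wider list, the markers and the motifs were chosen with earlier results of these data known. Of the wider list, the text names in each step and comparison the called gene with the largest change. Ulk2, Gabarapl2, Pik3c3, Rptor, Foxo3, Prkaa2 and Tfe3 fall outside this rule and were named after their values were seen. So was Mtor in DAT-Cre against control. Sequences are from RefSeq, GRCm38.p6. Other steps used Python 3.11.15, numpy 2.4.6, pandas 2.3.3 and matplotlib 3.10.9.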

Additional observations from a re-analysis of the deposited data

How the results depend on the processing

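Of the log2 fold changes of the 10 genes, those that changed sign had not passed the test. Becn1 in CX3-Cre against control was 0.0257 with library size alone, 0.0156 with genes of at least 1 count and 0.0227 with the reverse strand, and ran from -0.0437 to 0.0127 without single libraries. Optn in that comparison was 0.0201 with library size alone, 0.00965 with genes of at least 1 count and 0.00537 with the forward strand, and ran from -0.0785 to 0.0210 without single libraries. Map1lc3b in DAT-Cre against control was -0.0884 with library size alone, -0.0179 with at least 10 counts in every library, -0.0411 with the reverse strand and -0.00763 with the forward strand. Over all alternatives, leave-one-out included, 516 values kept direction and call, 30 lost the call, 12 gained it and 12 changed sign. Becn1 gained a call in DAT-Cre against control in 4 alternatives, with log2 fold changes of -0.23 to -0.13, and in CX3-Cre against DAT-Cre in 2 (0.14 and 0.26).

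In CX3-Cre against control, the 10 genes called higher (1) numbered 2 with library size alone, DESeq2 or the 2 groups alone and 0 with the reverse strand. Others called higher (3) numbered 7 with library size alone, 6 with genes of at least 1 count and 7 with the 2 groups alone, where 16 were called lower (10). In DAT-Cre against control, others called lower (6) numbered 16 with library size alone, 14 with at least 10 counts, 10 with the reverse and 13 with the forward strand. In CX3-Cre against DAT-Cre, others called higher (6) numbered 21 with library size alone and 11 with at least 10 counts or either strand, and all genes called higher (5767) numbered 8913 with library size alone. Beyond 1.2-fold, CX3-Cre against control left 0 of the 10 genes in either direction, 0 others higher and 2 lower, and 660 genes higher and 1103 lower in all. DAT-Cre against control left 0 of the 10 and 3 others lower, and 4280 genes higher. CX3-Cre against DAT-Cre left 0 higher and 4 lower of the 10, 3 higher and 16 lower of the others, and 3724 higher and 4265 lower in all. The 1.2-fold threshold lowers counts by construction, and the cause of the other shifts was not tested.

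Leaving out each library in turn gave, for the 10 genes, 0 to 2 higher and 2 to 4 lower in CX3-Cre against control, 6 higher and 2 lower in DAT-Cre against control, and 1 to 2 higher and 7 lower in CX3-Cre against DAT-Cre. For the others it gave 2 to 8 higher and 8 to 16 lower, 25 to 29 higher and 5 to 7 lower, and 5 to 9 higher and 22 to 30 lower, in the same order. The 8 and 16 came without DAT-Cre B. Over all tested genes the calls ran from 2013 to 4107 higher and 2626 to 4459 lower in CX3-Cre against control. They ran from 5834 to 7010 higher and 5287 to 6358 lower in DAT-Cre against control. In CX3-Cre against DAT-Cre the ranges were 5173 to 6286 higher and 5944 to 6859 lower. Library letters recur in each group, but same-letter libraries did not deviate together (correlations of -0.16 to 0.04). A replicate block on the letter left the calls of the 10 genes at 1 higher and 3 lower, 6 higher and 2 lower, and 2 higher and 7 lower. It changed no call of theirs. With it the others gave 3 and 9, 27 and 6, and 5 and 25. The lowest count of the 10 genes was 508, and the part of depth in the calls was not tested.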
